A study of Mus musculus with 10 samples.

Results

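Expression of 34 genes of the endoplasmic reticulum (ER) folding machinery and of the unfolded protein response was followed in sorted fibroblasts of mouse pancreatic tumours. The genes were taken from a list of symbols, chosen with earlier results of these data known, and were grouped by role. All 34 were found among the 48471 genes of the summed table, and 33 of them passed the filter on low counts, which left 15378 genes in the test. Ern2 did not pass it.

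RNA was sequenced from cancer-associated fibroblasts of the myofibroblastic kind (myCAFs), sorted by surface CD90 into a CD90- and a CD90+ group. The tumours were pancreatic ductal adenocarcinomas (PDAC) that formed after organoids of the KPC T-LOH type had been placed orthotopically, and the host strain was C57BL/6J. All hosts were male per the design text, and the labels give no age and no agent for either group. Both groups of a tumour pool share the animals named in the sample titles, so the 10 libraries form 5 matched pairs. The titles name 4, 1, 2, 3 and 1 animals in pools 1 to 5, or 11 in all, where the design text counts 5 mice. Some libraries are therefore pools of animals, and n below is the number of pools. Values are listed in the order of pools 1 to 5 throughout.

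Secreted and membrane proteins enter the ER through the SEC61 translocon and are folded there by chaperones, lectins and disulfide isomerases, and terminally misfolded chains are returned to the cytosol for degradation. When unfolded chains accumulate, the sensors IRE1 (Ern1, Ern2), PERK (Eif2ak3) and ATF6 signal to the nucleus. ATF6 and the spliced form of XBP1 raise chaperone and degradation genes, while PERK slows translation and raises ATF4, which turns on amino acid supply genes and the factor CHOP (Ddit3). Fibroblasts that make much collagen carry a heavy folding load.

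Of the 14 ER chaperones, isomerases and lectins, 7 fell in the CD90- fraction, to between 0.558 and 0.693 of the CD90+ level. The sensors and ATF4 targets did not pass the test in either direction, but only 8 such genes were tested, with Ddit3 included. At the share called over all genes, a set of that size can hold 0 calls. Of the 33 members tested, 9 fell and 0 rose at an adjusted p under 0.05 (edgeR quasi-likelihood test with the pool as a block, Benjamini-Hochberg over all genes tested). Among all genes tested 12.9% were called, 7.05% as lower and 5.83% as higher. Members are abundant, and abundant genes were called lower more often. Where the mean log2 level was 5 or more (CPM, counts per 1 M of the scaled library, M standing for mega) 17.0% of genes were called lower, beside 9 of 22 members at that level. The median log2 fold (CD90- over CD90+) was -0.40 over the members and 0.04 over all genes tested. In 5 of 5 pools the CD90- library was the lower for 13 of the 33 members and for 14.5% of all genes tested. The chaperone side (14 lumenal chaperones, co-chaperones, disulfide isomerases and lectins) had 7 members called lower and a median of -0.53. The ATF4 side (Trib3, Chac1, Asns, Ppp1r15a and Ddit3) had 0 called and a median of -0.22, with 1 member at an unadjusted p under 0.05. That member was Ddit3, with a log2 fold of -0.71 and an adjusted p of 0.0726. The difference between these groups of genes was not tested.

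The calls depended on single pools and on the pairing. Of the 9, 1 was still called when the pool was not a block (Dnajb11). Leaving out pool 1 left 0 of them called (14 members at an unadjusted p under 0.05), pool 2 left 2, and pool 4 or pool 5 left 4, as did an offset for transcript length. Leaving out both pool 4 and pool 5 left 1 (Calr). When each library's share of mitochondrial rRNA was entered in the edgeR model, 0 members and 0 genes in all were called (5 members at an unadjusted p under 0.05). That share was higher in the CD90- library of every pool, so this fit could hardly separate the share from the group. The fitted values of the 9 were below 0 under each of these settings.

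The libraries differed in more than CD90. Thy1, which encodes CD90, was lower in 5 of 5 pools, at 16.0, 10.2, 8.06, 5.98 and 2.07 CPM in CD90- against 97.3, 102, 39.2, 89.8 and 117 CPM in CD90+ libraries. Library totals lay between 11.7 and 47.7 M estimated counts, and nuclear protein-coding genes received 3.71 to 28.5 M of them. Mitochondrial rRNA took 35.6% to 84.4% of gene-assigned counts in CD90- libraries and 10.5% to 44.8% in CD90+ libraries. Of 10 fibroblast markers 9 fell (median log2 fold -2.26), and their summed level was 4061 to 20470 CPM in CD90- against 32461 to 54048 CPM in CD90+ libraries, without overlap. Of 11 tested cancer epithelial markers 7 rose (median 2.10), at 720 to 3031 against 181 to 1644 CPM in sum. In bulk RNA, fewer cells of a type and less RNA per cell cannot be told apart, and the part of these differences in the results that follow was not tested.

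**Figure D1:**
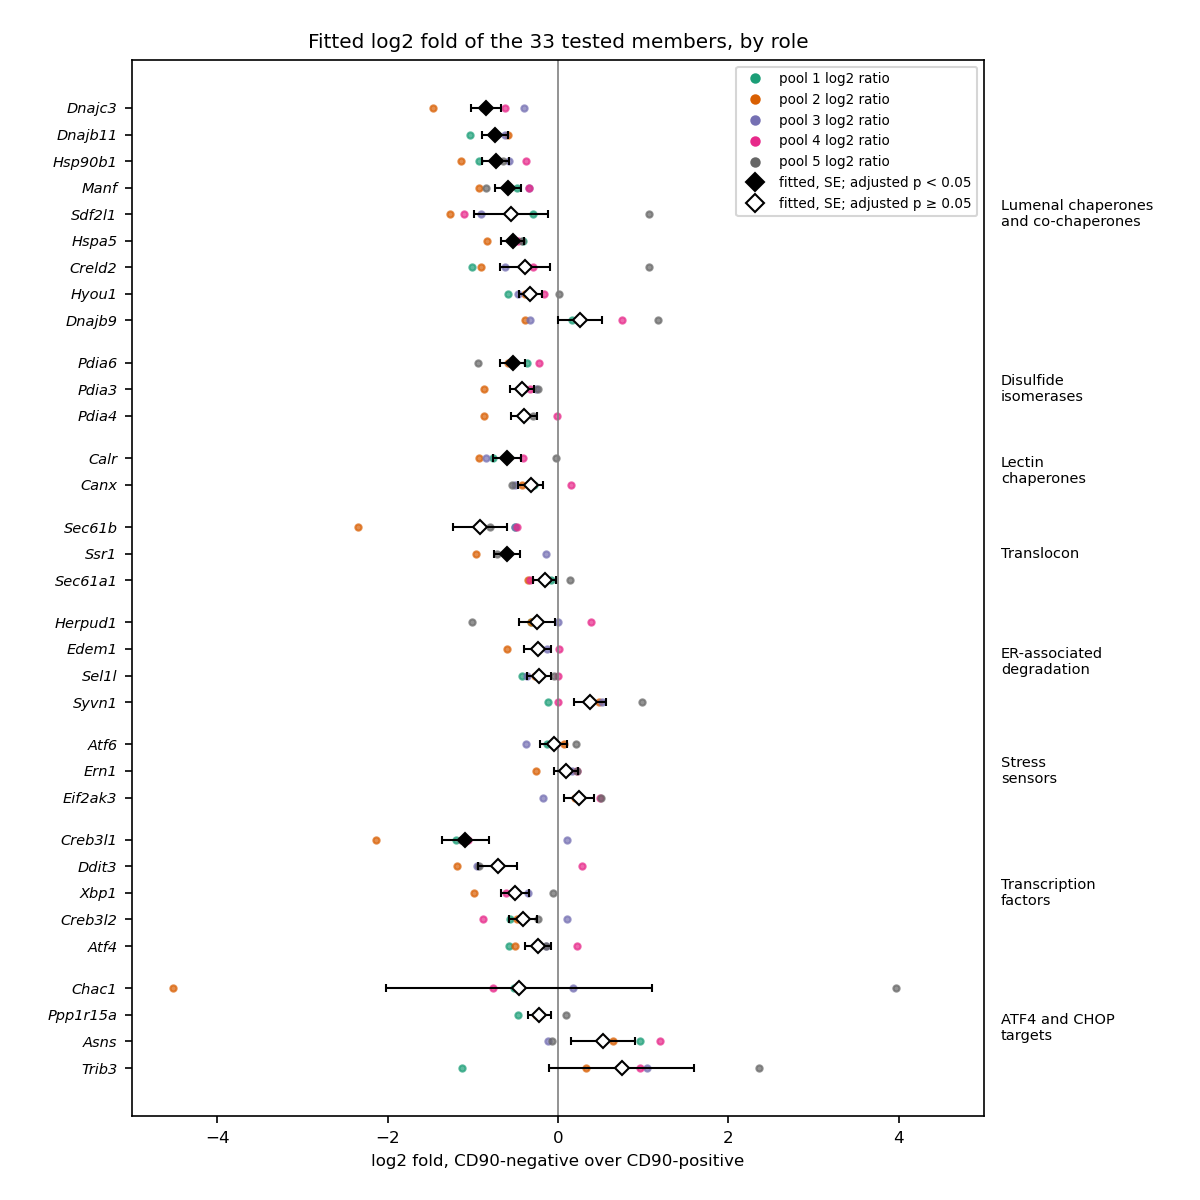
Fitted log2 fold (CD90- over CD90+, x axis) of the 33 tested members, grouped by role; diamonds are fitted values with their SE, filled where the adjusted p was under 0.05, and small points are the log2 ratios of single pools. The 9 filled diamonds lie between -1.09 and -0.53, whereas the sensors lie between -0.05 and 0.25.

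Promoter sequence was not used to choose the members, although several are textbook targets of ATF6, so the element below is no independent finding. The ER stress response element (ERSE), the site through which ATF6 and the factor NF-Y act, reads CCAAT, then 9 bases of any kind, then CCACG. It was searched on both strands, from 250 bases before to 50 bases after each RefSeq start site (GRCm38.p6). It was found in 8 of the 28 members that have a promoter entry and in 0.137% of 27025 genes. The shorter ERSE-II, ATTGG, 1 base of any kind, then CCACG, was found in 2 further members and in 0.0444% of all genes. The 5 members below carry an ERSE and were called lower. Each is shown 5′ to 3′ on the strand of the gene with the element in capitals, which reads CGTGG to ATTGG where it lies on the other strand. Coordinates are GRCm38.p6, whereas the authors' files were made on GRCm39, so they serve only to place the sequence.
Hspa5 (chr2:34772005-34772063, plus strand): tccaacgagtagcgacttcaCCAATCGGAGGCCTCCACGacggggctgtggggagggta
Hsp90b1 (chr10:86705618-86705676, minus strand): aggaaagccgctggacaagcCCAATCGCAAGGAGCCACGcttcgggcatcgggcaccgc
Hsp90b1, second element (chr10:86705513-86705571, minus strand): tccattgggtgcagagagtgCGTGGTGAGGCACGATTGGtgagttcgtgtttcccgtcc
Dnajc3 (chr14:118937807-118937865, plus strand): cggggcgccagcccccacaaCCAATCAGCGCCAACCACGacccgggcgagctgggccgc
Pdia6 (chr12:17266471-17266529, plus strand): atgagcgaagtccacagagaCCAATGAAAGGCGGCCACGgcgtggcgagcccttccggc
Calr (chr8:84847055-84847113, minus strand): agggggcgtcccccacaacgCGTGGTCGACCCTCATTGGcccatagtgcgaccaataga

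These elements begin 65 bases before the start site in Hspa5, 212 and 107 in Hsp90b1, 105 in Dnajc3, 98 in Pdia6 and 162 in Calr. Dnajb11, also called lower, carries the ERSE-II ATTGGCCCACG from 7 bases after its start site (chr16:22857852-22857862). The element is not restricted to members that were called. These 3 members with an ERSE, and Herpud1 with an ERSE-II, did not pass the test, and they are printed for comparison.
Canx (chr11:50325780-50325838, minus strand): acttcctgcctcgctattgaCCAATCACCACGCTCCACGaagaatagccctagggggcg
Creld2 (chr15:88819500-88819558, plus strand): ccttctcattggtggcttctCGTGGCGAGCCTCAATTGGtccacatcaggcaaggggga
Syvn1 (chr19:6046512-6046570, plus strand): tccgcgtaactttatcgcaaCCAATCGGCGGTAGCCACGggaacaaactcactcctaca
Herpud1 (chr8:94386357-94386407, plus strand): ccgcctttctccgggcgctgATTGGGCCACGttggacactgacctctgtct

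Of the 10 members with either element, 6 were called lower and the median log2 fold was -0.53. Of the other 18 members that have a promoter entry, 1 was called (Ssr1) and the median was -0.32. This difference was not tested. All members with either element, except Syvn1 and Herpud1, are on the chaperone side, so this split overlaps the split by role. The XBP1 site TGACGTGG and the amino acid response element through which ATF4 acts (TGATGNAAT, or TGATGCAAT in its strict form) had no match in the 28 windows, against 0.714%, 1.08% and 0.222% of all genes. Sites outside these windows, or with bases other than these patterns, were not searched, so a gene without a match may still have one. Atf6, Manf, Hyou1, Sec61a1, Ern2 and Creb3l1 had no entry.

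Hspa5 (ENSMUSG00000026864, chromosome 2) encodes BiP, the HSP70 of the ER and a common read-out of the unfolded protein response. It measured 445, 588, 525, 427 and 297 CPM in the CD90+ libraries and 334, 329.5, 368, 309 and 222 CPM in the CD90- libraries. The CD90- library was the lower of each pair, while the ranges of the groups overlapped through the low CD90+ library of pool 5. The log2 fold was -0.53 (SE 0.13, adjusted p = 0.0291), a level 30.7% lower.

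Hsp90b1 (ENSMUSG00000020048, chromosome 10) encodes GRP94, the HSP90 of the ER, which folds integrins and other clients. It measured 743, 921, 957, 738 and 527 CPM in CD90+ and 391, 417, 643, 569 and 338 CPM in CD90- libraries. It was lower in 5 of 5 pools (log2 fold -0.73, SE 0.16, adjusted p = 0.0146). Only the CD90+ library of pool 5 lay within the CD90- range.

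Dnajb11 (ENSMUSG00000004460, chromosome 16; ERdj3), which hands unfolded chains to BiP, measured 45.0, 40.1, 48.2, 37.5 and 33.2 CPM in CD90+ and 22.0, 26.6, 31.3, 22.4 and 20.1 CPM in CD90- libraries. Every CD90- value was below every CD90+ value, a separation found for 4.62% of all genes tested. Its log2 fold was -0.74 (SE 0.15, adjusted p = 0.0123), and among the 9 it was the member still called without the block for the pool.

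Dnajc3 (ENSMUSG00000022136, chromosome 14; P58IPK), a co-chaperone of the lumen, measured 75.9, 78.1, 103, 64.0 and 38.3 CPM in CD90+ and 42.1, 28.2, 78.4, 41.4 and 20.8 CPM in CD90- libraries. Its log2 fold of -0.84 (SE 0.17, adjusted p = 0.0124) was the furthest from 0 of the chaperone side, and the groups overlapped, with pool 3 the highest and pool 5 the lowest in both fractions. Manf (ENSMUSG00000032575, chromosome 9), a secreted and ER-resident factor that binds BiP, measured 46.8, 58.8, 67.0, 40.2 and 40.3 CPM in CD90+ and 33.6, 30.9, 52.7, 31.8 and 22.4 CPM in CD90- libraries (log2 fold -0.59, SE 0.16, adjusted p = 0.0372). With an offset for transcript length its log2 fold was -0.28 and it was not called.

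Other members of the lumenal group did not pass. Hyou1 (GRP170), the nucleotide exchange factor of BiP, gave -0.32 (SE 0.14, adjusted p = 0.170) and was lower in 4 of 5 pools. Creld2 (-0.39, SE 0.29) and Sdf2l1 (-0.55, SE 0.43), both small stress-induced ER proteins, were lower in 4 of 5 pools. In pool 5 both were higher in the CD90- library, at 13.3 against 6.29 CPM for Creld2 and 2.96 against 1.38 CPM for Sdf2l1. Dnajb9 (ERdj4), a repressor of IRE1, gave 0.26 (SE 0.26, adjusted p = 0.580) and was the only one of the 14 genes on the chaperone side with a positive fitted value.

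**Figure D2:**
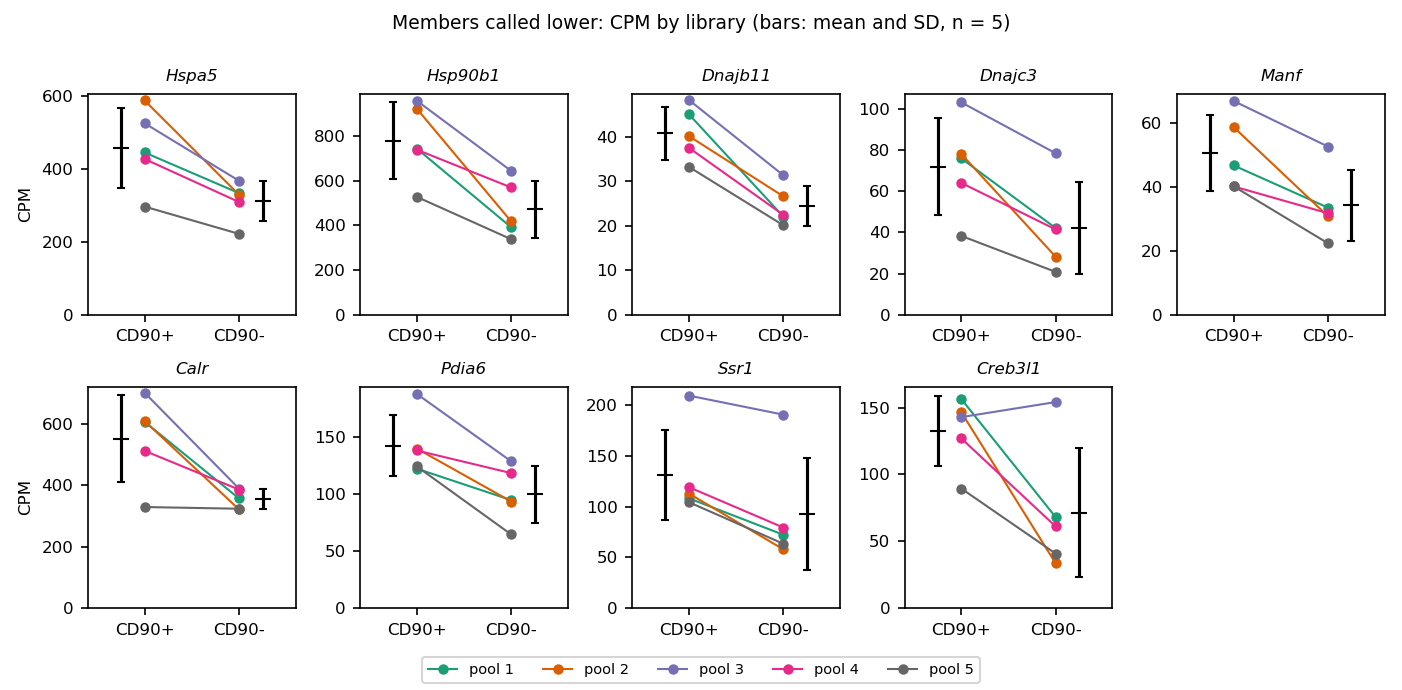
CPM (y axis, from 0) of the 9 members called lower, in CD90+ and CD90- libraries; each line joins the libraries of a pool, and bars are mean and SD (n = 5). Lines fall from CD90+ to CD90- in all pools except for Creb3l1, which is higher in the CD90- library of pool 3 (154 against 143 CPM).

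Of 3 disulfide isomerases 1 fell, and of 2 lectins 1 fell. Pdia6 (ENSMUSG00000020571, chromosome 12; P5), an oxidoreductase that works beside BiP, measured 122, 139.7, 188, 138 and 124 CPM in CD90+ and 94.6, 93.3, 129, 118 and 64.4 CPM in CD90- libraries. The log2 fold was -0.53 (SE 0.14, adjusted p = 0.0380), with each CD90- library below its partner and 1 CD90- value, that of pool 3, inside the CD90+ range.

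Pdia3 (ERp57), the isomerase that serves glycoproteins held by the lectins, was the highest of the 3 isomerases per length. It measured 266, 279.6, 398, 291 and 187 CPM in CD90+ and 203, 153, 332, 231 and 159 CPM in CD90- libraries (log2 fold -0.42, SE 0.14, adjusted p = 0.0853). Pdia4 (ERp72) had -0.40 (SE 0.15, adjusted p = 0.115). Both were lower in 5 of 5 pools, as were 14.5% of all genes tested, and neither passed the test.

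Calr (ENSMUSG00000003814, chromosome 8) encodes calreticulin, the soluble lectin chaperone and calcium store of the lumen. It measured 607, 609.6, 701.7, 512 and 329 CPM in CD90+ libraries, and stayed within 321 to 389 CPM in CD90- libraries (357, 321, 389, 386 and 323). The CD90+ library of pool 5 was at the level of the CD90- libraries, and the other 4 CD90+ libraries were above all of them. The log2 fold was -0.60 (SE 0.17, adjusted p = 0.0421). Canx, its membrane-bound relative calnexin, measured 243 ± 40.3 in CD90- against 301 ± 24.0 CPM in CD90+ libraries (SD, n = 5) and did not pass (-0.32, SE 0.15, adjusted p = 0.191).

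The sizes of the chaperone and fibroblast differences were set side by side by pool. The median log2 ratio of the 14 chaperone-side genes was -0.45, -0.86, -0.51, -0.34 and -0.36, and that of the 10 fibroblast markers was -2.27, -2.83, -0.77, -1.85 and -3.46. The orders of size differed. The chaperone difference was largest in pool 2 and smallest in pool 4, and the fibroblast difference was largest in pool 5 and smallest in pool 3. The part of fibroblast content in the chaperone difference was not tested. In the same pools the CD90- library had a mitochondrial rRNA share of 56.3%, 55.9%, 35.6%, 84.4% and 64.2%, against 23.8%, 22.4%, 10.5%, 33.04% and 44.8% in CD90+. Of the 14 genes, 13, 14, 14, 12 and 10 were lower in the CD90- library of the pool.

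Levels per transcript length spanned a wide range over the chaperone side. Deposited TPM (a transcript abundance corrected for length) were summed per gene and rescaled to the nuclear protein-coding genes of each library, which removes the mitochondrial share. On this scale Calr stood at 2529 ± 639.7 in CD90+ and 1644 ± 90.6 in CD90- libraries (SD, n = 5), with a median rank among coding genes of 26 and 59. Canx (1587 ± 132 against 1266 ± 263), Hsp90b1 (1555 ± 391 against 1005 ± 243) and Hspa5 (939 ± 243 against 699 ± 137) followed, each given as CD90+ against CD90-. Other chaperone-side genes ranked far lower, down to a median rank of 6043 in CD90+ and 7403 in CD90- libraries for Sdf2l1.

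The first 6 places of this order, which end with Pdia3 and Pdia4, were the same in both fractions, although neighbours such as Canx and Hsp90b1 lay within their SD. Together the 14 chaperone-side genes held 8855 ± 1821 on this scale in CD90+ and 6353 ± 604 in CD90- libraries (SD, n = 5), with the CD90- value lower in 5 of 5 pools. The 5 genes of the ATF4 side held 486 ± 115 in CD90+ and 380 ± 75.0 in CD90- libraries (SD, n = 5), also lower in 5 of 5 pools, with Ddit3 and Ppp1r15a making up most of the sum.

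**Figure D3:**
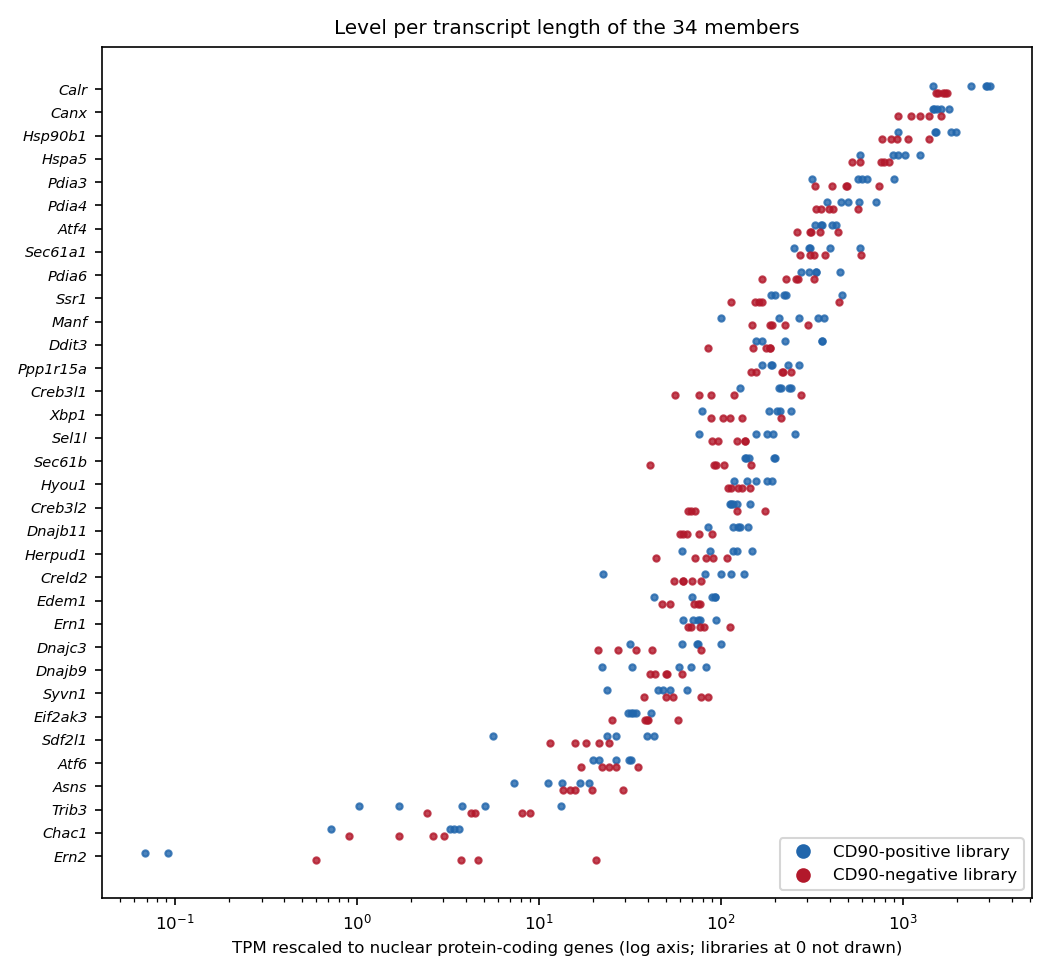
Level per transcript length of the 34 members (x axis, TPM rescaled to nuclear protein-coding genes, log scale), 1 point per library; members are ordered by their CD90+ mean. Calr, Canx and Hsp90b1 lead in both fractions, Trib3, Chac1 and Ern2 close the list, and libraries at 0 are not drawn.

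In the translocon, through which chains enter the ER, 1 of 3 members was called. Ssr1 (ENSMUSG00000021427, chromosome 13), a subunit of the translocon-associated TRAP complex, measured 108, 113, 209, 119 and 104 CPM in CD90+ and 72.1, 57.7, 191, 79.2 and 63.2 CPM in CD90- libraries. Both libraries of pool 3 stood far above the others, and within that pool the difference was the smallest. The log2 fold was -0.60 (SE 0.15, adjusted p = 0.0283).

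Sec61b, the small beta subunit of the channel, had non-overlapping groups (12.9, 18.7, 17.8, 13.6 and 13.1 CPM in CD90+, 9.05, 3.62, 12.5, 9.72 and 7.50 CPM in CD90-). Its log2 fold of -0.91 carried a large error (SE 0.32, adjusted p = 0.0920), and it was called with DESeq2 and when low counts were kept. The channel gene Sec61a1, the most abundant of the 3 per length, measured 97.7, 104, 164, 102 and 70.4 CPM in CD90+ and 92.2, 81.7, 148, 81.7 and 77.9 CPM in CD90- libraries (-0.15, SE 0.14, adjusted p = 0.529).

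None of the 4 genes of ER-associated degradation passed. Sel1l, the adaptor of the HRD1 ligase, measured 64.1, 70.6, 80.2, 62.4 and 36.3 CPM in CD90+ and 47.9, 58.6, 62.4, 62.2 and 35.1 CPM in CD90- libraries (log2 fold -0.22, SE 0.14, adjusted p = 0.354). Syvn1, the HRD1 ligase itself, had a fitted value of 0.37 on the log2 scale, with 4 of 5 pools above 0 (SE 0.19, adjusted p = 0.244). Edem1, which extracts misfolded glycoproteins, had -0.24 (SE 0.16), and Herpud1, a scaffold of the ligase complex, had -0.25 (SE 0.21). The CD90- library of pool 5 was the low one for Herpud1, at 15.7 CPM against 25.8 to 29.4 CPM in the other 4.

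The 3 tested stress sensors had fitted values between -0.05 and 0.25, and none was called. Ern1, the ubiquitous IRE1, measured 51.4, 71.0, 61.2, 45.8 and 42.4 CPM in CD90+ and 55.9, 59.5, 68.4, 53.3 and 49.7 CPM in CD90- libraries, with overlapping groups (log2 fold 0.09, SE 0.14, adjusted p = 0.727). Atf6 had -0.05 (SE 0.16, adjusted p = 0.879). Eif2ak3, which encodes PERK, lay within 23.9 to 26.5 CPM in the CD90+ libraries and at 28.3, 27.5, 22.6, 33.6 and 37.7 CPM in the CD90- libraries (0.25, SE 0.17, adjusted p = 0.414). It was higher in 4 of 5 pools, and pool 3 was the exception.

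Ern2 encodes IRE1-beta, which is known from mucous epithelia. It had 82, 0, 18, 25 and 331 counts in the CD90- libraries (2.82, 0, 0.356, 2.67 and 12.2 CPM) and 1, 0, 4, 0 and 0 counts in the CD90+ libraries. It was below the filter. It entered the test only when low counts were kept or pool 2 was left out, through its counts in CD90- libraries, so its calls there are not read as a rise. Summed mucous epithelial markers (Tff1, Tff2, Gkn1, Spdef, Agr2, Muc5ac and Gkn2) in the same CD90- libraries were 24.6, 3.08, 4.06, 31.9 and 122 CPM, so that pool 5 was highest and pool 2 lowest for both. In CD90+ libraries they were 0.0921 to 6.58 CPM. None of these 7 markers was at 0 in all libraries, and their part in the Ern2 counts was not tested.

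Among the transcription factors, Creb3l1 was the member with the largest called difference. Creb3l1 (ENSMUSG00000027230, chromosome 2; OASIS) is an ER-anchored factor known for driving collagen and secretory genes in matrix-producing cells. It measured 156, 147, 143, 127 and 89.4 CPM in CD90+ and 68.0, 33.4, 154, 61.0 and 40.7 CPM in CD90- libraries. The CD90- library of pool 3 was the highest but 1 of all 10, and the other 4 lay below every CD90+ library. The log2 fold was -1.09 (SE 0.28, adjusted p = 0.0343). Its relative Creb3l2, also tied to collagen secretion, had -0.41 (SE 0.16, adjusted p = 0.134) and the same high CD90- library of pool 3, at 199.9 CPM against 82.2 to 116 CPM in the other 4. That library also had the highest summed fibroblast markers of the CD90- group, at 20470 CPM. Within the group it further had the lowest mitochondrial rRNA share (35.6%), the most nuclear protein-coding counts (19.8 M) and the lowest summed cancer epithelial markers (720 CPM). The part of these features in the values of both factors was not tested.

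Xbp1, the target of IRE1 splicing, measured 52.0, 74.3, 88.7, 59.8 and 28.6 CPM in CD90+ and 36.3, 37.4, 69.3, 39.1 and 27.4 CPM in CD90- libraries. It was lower in 5 of 5 pools and did not pass (log2 fold -0.51, SE 0.16, adjusted p = 0.0705). With pool 5 left out it was called. Its spliced share was not analysed here, because the transcript models that carry the IRE1 site all contain the intron.

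Atf4 was the most abundant factor per length and measured 145, 132, 117, 117 and 124 CPM in CD90+ and 97.0, 92.5, 106, 137 and 112 CPM in CD90- libraries. The groups overlapped, and the log2 fold was -0.23 (SE 0.15, adjusted p = 0.389). ATF4 is controlled mainly at translation, which RNA levels do not show.

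The ATF4 and CHOP targets had no call and no common direction. Ddit3 (CHOP), itself an ATF4 target, measured 27.3, 48.3, 20.04, 21.1 and 36.2 CPM in CD90+ and 16.7, 21.2, 10.4, 25.7 and 19.0 CPM in CD90- libraries. It was lower in 4 of 5 pools and missed the threshold (log2 fold -0.71, SE 0.23, adjusted p = 0.0726), which it passed with DESeq2, when low counts were kept and when pool 4 was left out. Pool 4 was the pool in which it was higher.

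Ppp1r15a (GADD34), which restores translation after PERK has acted, measured 146, 131, 88.6, 97.6 and 102 CPM in CD90+ and 106, 110.03, 75.0, 83.2 and 109 CPM in CD90- libraries (-0.22, SE 0.13, adjusted p = 0.349). Asns, asparagine synthetase, measured 2.70, 4.19, 5.25, 3.22 and 5.21 CPM in CD90+ and 5.34, 6.57, 4.83, 7.48 and 4.95 CPM in CD90- libraries. It was higher in 3 of 5 pools, by 0.53 on the log2 scale (SE 0.38, adjusted p = 0.427).

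Trib3, an inhibitory pseudokinase induced by CHOP, and Chac1, which degrades glutathione, were near the lower limit of detection. Trib3 measured 2.56, 0.842, 0.829, 0.460 and 0.295 CPM in CD90+ and 1.14, 1.07, 1.78, 0.961 and 1.77 CPM in CD90- libraries (0.75, SE 0.85, adjusted p = 0.637). Chac1 did not exceed 1.39 CPM in any library and was at 0 in the CD90- library of pool 2 and the CD90+ library of pool 5 (-0.46, SE 1.57, adjusted p = 0.889). With these errors, differences of several fold in either gene were not detectable.

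**Figure D4:**
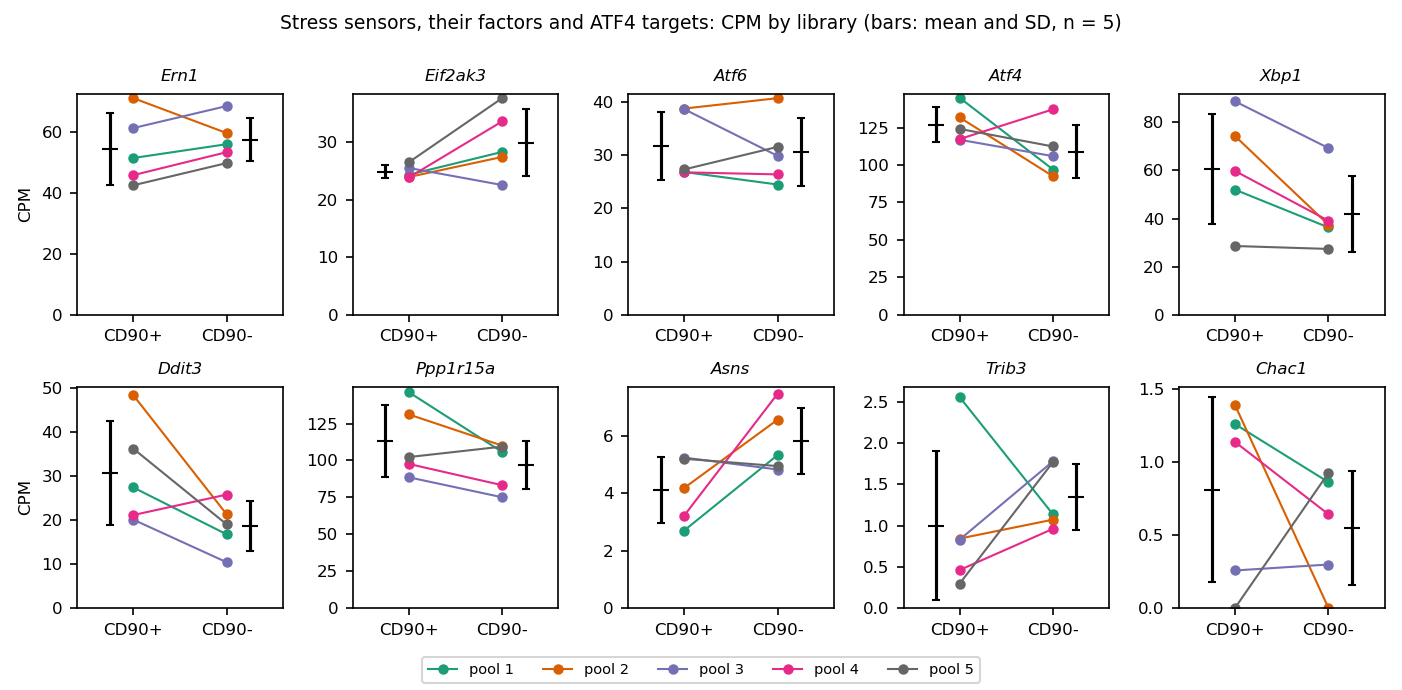
CPM (y axis, from 0) of the stress sensors, the factors downstream of them and the ATF4 targets in CD90+ and CD90- libraries; each line joins the libraries of a pool, and bars are mean and SD (n = 5). The groups overlap in every panel, and none of these 10 genes was called.

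Genes outside the list that serve the same steps were also counted, in lists likewise chosen with earlier results of these data known. Of 27 other folding enzymes and chaperones of the ER, 9 fell and 0 rose, with a median log2 fold of -0.44, beside the 7.05% of all genes called lower. These included Txndc5, a disulfide isomerase (-1.01, SE 0.17, adjusted p = 0.00638), and Fkbp7, a prolyl isomerase (-2.31, SE 0.46, adjusted p = 0.0113). P4hb, which encodes protein disulfide isomerase and the beta subunit of collagen prolyl 4-hydroxylase, measured 367 ± 133 in CD90- against 578 ± 142 CPM in CD90+ libraries (SD, n = 5; -0.68, SE 0.15). Ppib, cyclophilin B, which acts on procollagen, measured 70.6 ± 13.6 against 105 ± 8.48 CPM (SD, n = 5; -0.58, SE 0.14).

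Of 24 other genes of stress signalling and ER-to-Golgi traffic, 8 fell and 0 rose (median -0.49). The 4 with the smallest p all act in traffic. They were Mcfd2, a cargo receptor subunit (-1.14, SE 0.17), Sec24d, a COPII coat subunit needed for procollagen export (-1.05, SE 0.20), Sar1a, the GTPase of that coat (-0.78, SE 0.16), and Kdelr2, which returns chaperones from the Golgi (-1.06, SE 0.22; lower in 4 of 5 pools). Leaving out pool 1 left 1 call in each of these lists, and 0 were left when both pool 4 and pool 5 were left out or the mitochondrial rRNA covariate was used.

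Shares of lower calls in the other lists were close to the background. Of 24 other translocation and signal peptide genes, 2 fell and 1 rose (median -0.28): Ssr2, a TRAP subunit (-0.80, SE 0.18), Ddost, of the oligosaccharyltransferase (-0.59, SE 0.17), and Sec11c, a signal peptidase subunit that was higher at 20.6 ± 6.28 in CD90- against 9.50 ± 1.86 CPM in CD90+ libraries (SD, n = 5; 1.07, SE 0.28). Of 22 other degradation genes, 1 fell and 1 rose (median -0.28), namely the conjugating enzyme Ube2g2 (-0.88, SE 0.23) and Aup1 (0.59, SE 0.17).

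Of 32 other ATF4 and integrated stress response genes, 2 fell and 1 rose, with a median of -0.04. Fitted values were below 0 for 16 of them and above 0 for 16. In the same edgeR test 13 of the 32 had an unadjusted p under 0.05, in both directions, beside 4132 of all 15378 genes tested. Cebpb, a bZIP factor that also acts outside this pathway, was at 117 ± 37.0 in CD90- against 243 ± 25.5 CPM in CD90+ libraries (SD, n = 5; -1.11, SE 0.19, adjusted p = 0.00624), and the bZIP factor Atf5 had -1.44 (SE 0.34, adjusted p = 0.0248). Phgdh, the first enzyme of serine synthesis, was higher at 22.5 ± 7.70 against 10.4 ± 5.06 CPM (SD, n = 5; 1.21, SE 0.28, adjusted p = 0.0195). 

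Markers of other cell types, among them secretory cells that carry much of this machinery, were summed in each library, and their part in the results was not tested. The 11 acinar markers summed to 6.13, 5.03, 1.35, 42.9 and 21.7 CPM in CD90- libraries and to 0.149 to 6.19 CPM in CD90+ libraries, with 1 of 4 tested called higher (Ctrb1). The 7 plasma and B cell markers summed to at most 2.55 CPM in any library, with Mzb1 at 0 in all 10. Macrophage markers summed to 24.3 to 59.5 CPM in CD90- and 10.7 to 21.4 CPM in CD90+ libraries, with 1 of 9 called higher (Mrc1). Among endothelial markers 2 of 7 were called higher (Cdh5 and Pecam1), among pericyte markers 1 of 6 lower (Des), and among mesothelial markers 1 of 5 higher (Msln). The whole endothelial list summed to 32.6 to 255 CPM in CD90- against 27.1 to 37.5 CPM in CD90+ libraries. In the same order, the pericyte list summed to 12.0 to 150.3 against 104 to 223 CPM, and the mesothelial list to 154 to 266 against 185 to 298 CPM. Msln stood against its list, in which the other 4 genes had fitted values below 0 and the median log2 fold was -1.51. These markers are named after their values were seen. T cell markers summed to 0.786 to 7.37 CPM over all libraries, with 0 of 1 called. Fibroblast markers were present in every library, but the share of cells of the labelled type in each fraction was not measured.

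**Figure D5:**
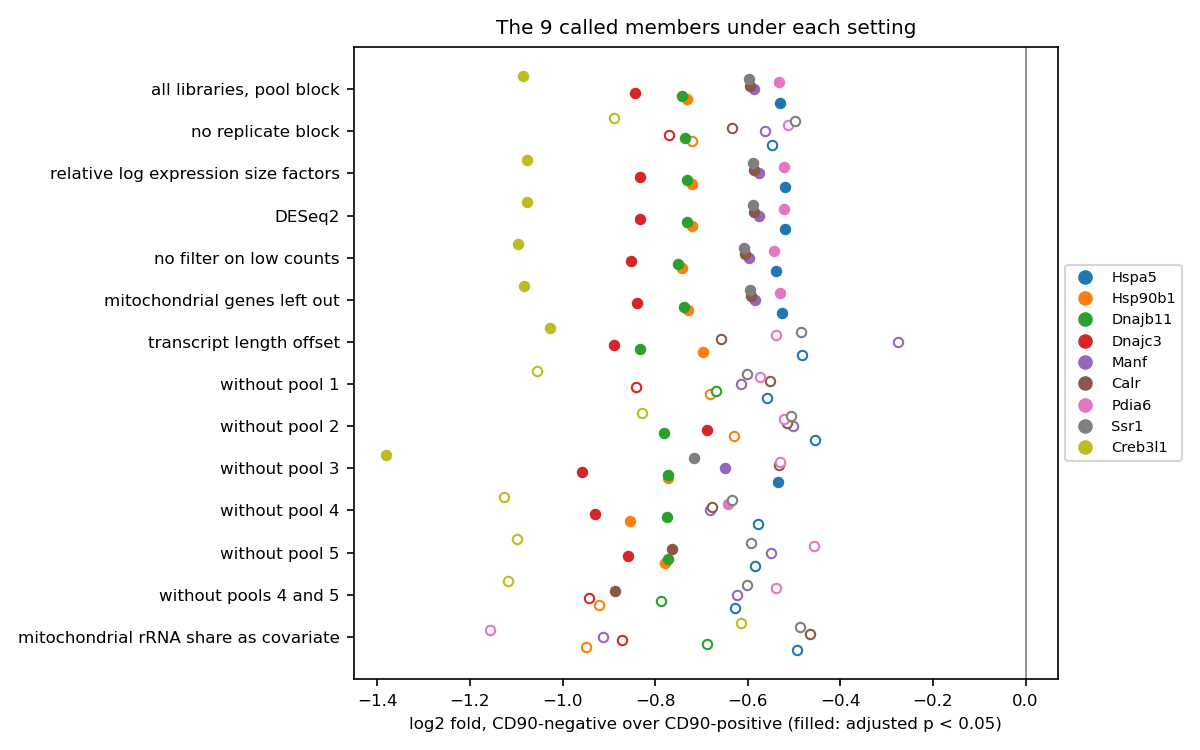
Log2 fold (x axis) of the 9 called members under each setting (rows), filled where the adjusted p was under 0.05. All values are below 0, while the number filled falls from 9 with all libraries and the pool block to 1 without the block and 0 with the mitochondrial rRNA covariate.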

How the data were processed

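Low-input stranded libraries were made from 0.1 to 1.2 ng of total RNA (RIN 3.1 to 8.7) with 10 or 5 cDNA cycles by input and 14 final cycles, per the labels; neither is recorded per library. The authors deposited estimated counts, effective lengths and TPM per transcript, from Salmon 1.9.0 on GRCm39 (mm39) per the submitters' processing notes; their annotation and strand setting are not given. PCR reads without molecular identifiers are not independent molecules, and counts of low genes limit precision.

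Transcripts were matched without version to GENCODE M21 (133666 of 144584, 92.4%; the rest held 3.63% to 12.1% of counts), summed per gene and rounded. Reads of overlapping or antisense genes and of pseudogenes were divided by Salmon's model. The test was edgeR 4.0.16 (R 4.3.3; filterByExpr, TMM, robust glmQLFit) with the pool as a block and a threshold of 0.05, checked on simulated data. The pairing rests on the shared animals in the titles. Deviations of paired libraries correlated by 0.06, 0.00, 0.46, 0.03 and 0.19. CD90- libraries of pools 1, 3 and 5 correlated best with their own partner, and those of pools 2 and 4 with the CD90+ library of pool 5. P-values cover the spread between these pools. No 2 libraries of a group agreed within counting noise. Single-pool log2 ratios used a prior count of 2. Each SE given was derived from the edgeR test, as the absolute log2 fold over the square root of its F statistic. Alternatives were no block, relative log expression size factors, DESeq2 1.42.0, no filter, mitochondrial genes left out, a length offset, pools left out, and a covariate for mitochondrial rRNA. The members and lists were chosen with earlier results of these data known. Named were all members, and from each other list up to 4 called genes with the smallest p; the level of 5 in log2 CPM was chosen after seeing the data. Retention signals of the proteins and the spliced share of Xbp1, both planned, were not analysed here.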

Additional observations from a re-analysis of the deposited data

Results flagged for a closer look

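A member's value in 1 library stood apart from the other 4 of its group by a gap above Dixon's 95% limit in 9 of 66 groups of 5 libraries, where chance flags about 1 in 20. In 7 of them the library belonged to pool 3. Ssr1 was at 191 CPM in CD90- and 209 CPM in CD90+ libraries of that pool, against 57.7 to 79.2 and 104 to 119 CPM in the others. In the CD90- library of pool 3, Creb3l1 stood at 154 CPM, Creb3l2 at 199.9, Sec61a1 at 148 and Xbp1 at 69.3 CPM, with highest other values of 68.0, 116, 92.2 and 39.1 CPM. Pdia6 was at 188 CPM in the CD90+ library of pool 3 (others 122 to 139.7). Herpud1 was low at 15.7 CPM in the CD90- library of pool 5 (others 25.8 to 29.4), and Trib3 was high at 2.56 CPM in the CD90+ library of pool 1 (others 0.295 to 0.842).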

How the results depend on the processing

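The 9 called members were lower under every one of the 13 alternatives, but their calls were not stable. Over all genes 1980 were called, against 965 with no replicate block for the pool, 3432 with DESeq2, 2934 with no filter, 541 without pools 4 and 5, 0 with the mitochondrial rRNA covariate (882 at an unadjusted p under 0.05) and 675 (pool 1) to 2019 (pool 3) with 1 pool left out. With the replicate block removed, calls lower were 1 member (1 on the chaperone side, 0 of the members on neither the chaperone nor the ATF4 side), 2 other folding, 0 translocation and 2 stress and traffic genes, and calls higher were 0 degradation and 0 other ATF4 genes. With the covariate, which rose with the CD90- group in every pool, 0 genes were called in any list and direction. Without pools 4 and 5, 1 member was called lower (chaperone side 1, neither side 0) and 0 genes of the other lists in either direction. With the length offset, 4 members were lower (chaperone side 3, neither side 1), 5 other folding, 0 degradation and 5 stress and traffic genes, and 0 rose in the translocation, degradation and ATF4 lists. DESeq2 called 11 members lower (ATF4 side 1, neither side 3), and 4 translocation, 3 degradation and 5 other ATF4 genes lower, with 3 other ATF4 and 1 stress and traffic genes higher. With no filter, 11 members were lower (ATF4 side 1, neither side 3) and 1 higher (Ern2, which enters only there and without pool 2), with 3 translocation and 3 degradation genes lower. Leaving out 1 pool gave 0 to 7 members lower and 0 to 1 higher; 0 to 5 of the chaperone side, 0 to 1 of the ATF4 side and 0 to 2 of neither side lower; and, lower, 1 to 7 other folding, 0 to 2 translocation, 0 to 2 degradation, 1 to 3 other ATF4 and 1 to 8 stress and traffic genes. Higher calls were 0 to 1 in the translocation, 0 in the degradation and 0 to 1 in the ATF4 lists. Fitted directions turned under the covariate for Xbp1 (0.0128), Sdf2l1 (1.10), Creld2 (0.45), Chac1 (3.47), Asns (-0.90), Ppp1r15a (0.0157), Sec61a1 (0.25) and Creb3l2 (0.43); for Dnajb9 with the length offset (-0.0559) and without pools 4 and 5 (-0.23); for Ern1 without pools 4 and 5 (-0.0303). With 1 pool left out, Atf6 ranged from -0.14 to 0.0300 (without pool 3) and Chac1 from -1.35 to 0.42 (without pool 2). None of these was called. The cause was not tested; settings that leave out pools test fewer samples. The spliced share of Xbp1 and its alternatives were not run. Trib3 and Chac1 had few counts, and their standard errors of 0.85 and 1.57 limit what could be detected.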
